A study of Mus musculus with 20 samples.

Results

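The genes described here encode the proteins of the cytosolic ribosome in mouse hippocampus. They were taken as all gene symbols of the Rpl and Rps families, with Rplp0, Rplp1, Rplp2 and Rpsa, without ribosomal S6 kinases and pseudogenes, and were selected on a mean of at least 1 CPM over the 20 libraries (CPM is the gene's count scaled to a common library total). Of 84 matching symbols, 77 passed this threshold, out of 24513 genes in the files, and all 77 entered the test of differential expression over 16657 genes. One member, Rps9, was chosen by its measured difference between genotypes, seen in earlier results of these data, and set apart from the rest, so its values are a description and carry no test. The other 76 comprise 45 genes of the large subunit and 31 of the small subunit.

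Polyadenylated RNA was sequenced from the hippocampi of male mice aged 9 months and labelled as strain C57BL/6J, with 5 libraries in each of 4 genotypes. The groups were PS19/C3aR KO, PS19, C3aR KO and WT. In PS19 the mouse prion promoter drives a mutant human tau transgene, and C3aR KO names a knockout of the receptor for the complement fragment C3a. The PS19/C3aR KO group is labelled with both, and the 4 groups share their labelled strain, sex, age and tissue. Whether the 20 libraries are 20 separate mice is not in the labels, and the p-values therefore cover only the variation among libraries of a group, some of which may be technical.

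Gene counts ranged from 33885850 to 47828111 per library, and 18869 to 19321 genes had at least 1 count. CPM values of libraries and genotypes given below are also scaled by TMM, a further factor for each library. The gene for the knocked-out receptor, C3ar1, had 14.96 to 18.7 CPM in libraries labelled PS19/C3aR KO, 4.98 to 13.7 CPM in PS19, 14.1 to 17.98 CPM in libraries labelled C3aR KO and 1.73 to 2.42 CPM in WT. Its level was thus higher, not lower, in the libraries labelled as knockouts. The labels do not give the deleted stretch, and counts over the whole gene cannot check the deletion. Prnp, whose promoter drives the transgene, had 1828 to 2026 CPM in PS19/C3aR KO and 1838 to 1917 CPM in PS19, against 825 to 871 CPM in C3aR KO and 825 to 949 CPM in WT. The choroid plexus transcript Ttr ranged from 9.53 to 4060 CPM across the libraries, with low and high libraries in every genotype. The ribosomal RNA precursor Rn45s held 0.873 to 4.48% of gene counts. Reads set aside for aligning to more than 1 place were taken as a share of gene counts and all set-aside reads together. This share was 16.1 to 18.7% in PS19/C3aR KO, 13.6 to 17.4% in PS19, 13.8 to 19.9% in C3aR KO and 17.7 to 19.2% in WT. All 5 PS19 libraries thus lay below all 5 WT libraries, and the part of this share in the differences below was not tested. All 8 marker genes listed for hippocampal neurons and all 8 for neurons in general were detected. The 10 microglial marker genes summed to 479 to 848 CPM in PS19/C3aR KO, 561 to 1217 CPM in PS19, 400 to 445 CPM in C3aR KO and 382 to 423 CPM in WT. The 8 astrocyte marker genes summed to 6772 to 8347 CPM in PS19/C3aR KO, 7148 to 10937 CPM in PS19, 6060 to 6871 CPM in C3aR KO and 6036 to 6450 CPM in WT. The 8 oligodendrocyte marker genes summed to 4117 to 5627 CPM in PS19/C3aR KO, 5747 to 6479 CPM in PS19, 2869 to 5158 CPM in C3aR KO and 3467 to 5322 CPM in WT, so all 5 PS19 libraries lay above the other 15. In PS19 against WT, edgeR called 10 of 10 microglial, 6 of 8 astrocyte and 2 of 8 oligodendrocyte markers higher, and 2 of 8 neuronal markers lower.

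A cytosolic ribosome is built from ribosomal RNA and about one copy of each ribosomal protein, and cells make the proteins in matched amounts. Most of their mRNAs begin with a terminal oligopyrimidine tract, or TOP, a C followed by a run of pyrimidines at the very first base, through which the kinase complex mTORC1 controls their translation together. The proteins Rplp0, Rplp1 and Rplp2 form the stalk of the large subunit, where elongation factors bind. A few ribosomal protein genes have minor paralogs, such as Rps27l beside Rps27, and RPS27L is known in human cells as a target of the tumour suppressor p53. In neurons, ribosomes in dendrites and axons translate mRNA near synapses.

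The windows around the annotated transcription start are printed for Rps9, for Rplp0 as the stalk base, for Rps2 as the member with the widest spread, and for the paralogs Rps27l and Rpl22l1, because the results below turn on these genes. Each holds 30 bases before the start and 20 from it, from RefSeq on GRCm38.p6, read 5′ to 3′ on the plus strand, with a TOP-like run in capitals.
Rps9, chr7:3704011-3704060: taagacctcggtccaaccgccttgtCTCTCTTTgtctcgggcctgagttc
Rplp0, chr5:115559437-115559486: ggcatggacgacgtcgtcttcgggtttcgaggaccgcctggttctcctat
Rps2, chr17:24720033-24720082: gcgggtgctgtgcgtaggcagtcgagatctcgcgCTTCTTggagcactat
Rps27l, chr9:66946056-66946105: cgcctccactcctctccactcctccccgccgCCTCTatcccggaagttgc
Rpl22l1, chr3:28805478-28805527: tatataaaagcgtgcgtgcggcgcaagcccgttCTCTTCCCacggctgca

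A TOP-like run was searched as a C followed by at least 4 more bases that are C or T, on the sense strand only. It had to begin within 5 bases of any annotated start of the gene, and the longest run was kept. A gene with more annotated starts had more chances to hold a run, and the number of starts was not compared. Such a run was found in 27 of the 57 members with a promoter entry, or 47.4%, against 5718 of 27025 genes in the table, or 21.2%. Among other mRNAs classed as TOP mRNAs, 7 of 13 with an entry held one. Rps9 and Rpl22l1 each had a run of 8 bases, Rps2 had 6 and Rps27l had 5. Rplp0 had none in this window, which says only that these letters are not within 5 bases of this annotated start.

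The 77 members lie on 19 chromosomes, with 14 on chromosome 7. Rps9 is at chr7:3703954-3706897 on GRCm38. Its nearest tested neighbours are Tsen34, which encodes a subunit of the tRNA splicing endonuclease and lies 2919 bases away, and Pirb, an immunoglobulin-like receptor gene 5608 bases away. Tsen34 did not pass the test in PS19 against WT (log2 fold change -0.04, SE 0.043, adjusted p = 0.635), whereas Pirb rose (1.13, SE 0.36, adjusted p = 0.0473). Of the 10 nearest tested genes, 5 on each side, 2 rose and 0 fell in this comparison, where 10.8% of all genes passed. Beside Pirb, the other was Lair1, an immune receptor gene 300176 bases away (0.79, SE 0.18, adjusted p = 0.0089). In PS19/C3aR KO against PS19, 0 of the 10 were called, where 0.252% of all genes passed.

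Per kilobase of the principal transcript, levels were close together: 66 of the 76 members with an annotated length lay within 2-fold of the median of 206.9 CPM per kilobase. The lowest were Rps27l at 15.4, Rps20 at 27.8, Rpl7l1 at 28.6 and Rpl22l1 at 53.0 CPM per kilobase. Of these 4, Rps27l, Rpl7l1 and Rpl22l1 are minor paralogs, while the principal transcript used for Rps20, a core protein of the small subunit, was 3706 bases long. The parent genes Rpl7 and Rpl22 stood at 150.4 and 181 CPM per kilobase. The highest were Rplp1 of the stalk at 668, Rpl41 at 525 and Rps29 at 476 CPM per kilobase. Rps9, a small subunit protein, stood at 222 CPM per kilobase, near the middle of the set. Per count rather than per length, the 77 members held 1.17 to 1.32% of gene counts in PS19/C3aR KO, 1.14 to 1.34% in PS19, 1.13 to 1.34% in C3aR KO and 1.19 to 1.29% in WT, so the groups overlapped throughout.

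**Figure D1:**
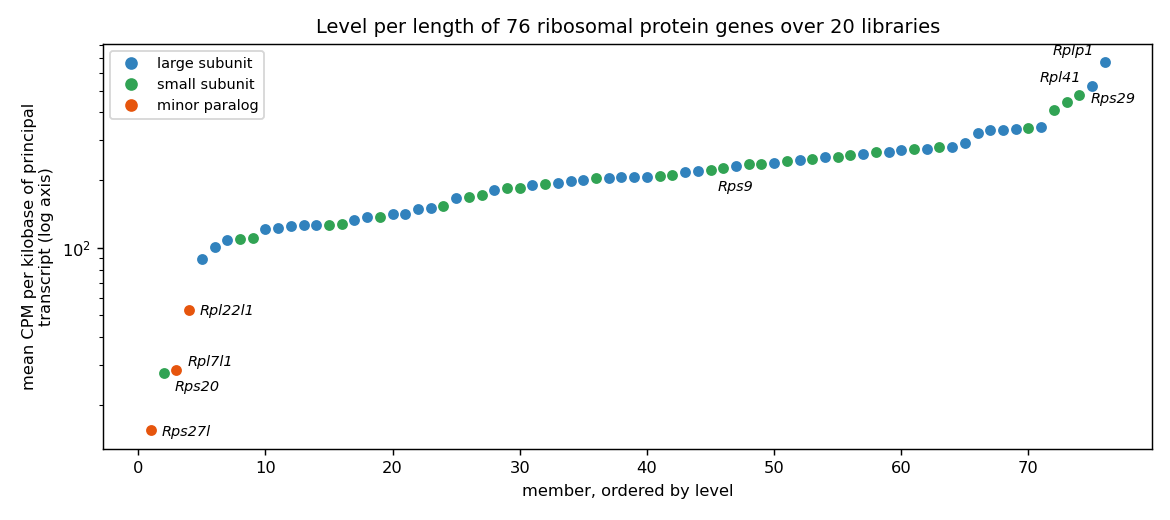
Mean level of 76 ribosomal protein genes over 20 libraries, in CPM per kilobase of the principal transcript (log axis), ordered from low to high and coloured by subunit, with minor paralogs in orange. Rps27l at 15.4 lies lowest and Rplp1 at 668 highest, and Rps9 at 222 sits among the other members.

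Just above the threshold stood Rps27l with a mean of 7.69 CPM, Rps4l with 12.2 CPM and Rpl22l1 with 29.3 CPM. Just below it stood Rps27 with 0.964 CPM, Rpl34 with 0.803 CPM and Rpl3l with 0.288 CPM, and below those Rpl30 with 0.171 CPM, Rpl39l with 0.084 CPM, Rpl10l with 0.001 CPM and Rpl26 with no count in any library. Rps27, Rpl34, Rpl30 and Rpl26 encode core proteins of the ribosome, so these 4 levels are far below those of other core members. Such genes have near-identical copies elsewhere in the genome, and the counting can leave out reads that fit several genes. Of the 76-base windows of Rps27 transcripts, 42.3% also occurred in transcripts of other genes, as did 32.0% for Rpl26, 18.2% for Rpl30 and 8.25% for Rpl34. The median over 76 members was 29.6%, with at least 1 shared window in 74 of them, and the part of shared sequence in these low counts was not tested.

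In libraries labelled PS19/C3aR KO against PS19 libraries, none of the 76 members other than Rps9 passed the test, where 0.252% of all tested genes did (edgeR, adjusted p below 0.05). At an unadjusted p below 0.05, 11 of 76 members differed, beside 14.5% of all genes. None of the 76 had its 2 groups wholly apart, where 0.997% of all genes were wholly higher in PS19/C3aR KO and 1.58% wholly lower. DESeq2 called 2 of the 76, Rpl10 and Rps27l, beside 2.66% of all genes. The median log2 fold change of the 76 was -0.029, with 57 below 0, against -0.0041 over all genes, with 8551 of 16657 below 0. Members stood high or low together by library, as described below, so the 57 are not independent of each other. The change was small and precisely bounded: for 72 of the 76, the 95% interval of the fold change lay inside 1.2-fold in both directions, which held for 42.4% of all tested genes. All 45 large subunit members were within that limit here and in the other 3 comparisons of 2 groups, and 44 of 45 in the interaction. At the ends of the range of log2 fold changes among the 76 were Rps27l, described below, Rps2 (0.25, SE 0.17, adjusted p = 0.520), Rps14 (-0.21, SE 0.098, adjusted p = 0.342) and the paralog Rpl22l1 (0.12, SE 0.062, adjusted p = 0.377), none of them called by edgeR. The median standard error of a member's log2 fold change was 0.047, against 0.097 for all genes. Intervals and standard errors also depend on a gene's level, and neither was counted for other genes in the members' range of levels. Only the spread within groups, given below, is set beside such genes.

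The 3 stalk genes had log2 fold changes of -0.11 for Rplp0 (SE 0.046, adjusted p = 0.251), -0.11 for Rplp1 (SE 0.050, adjusted p = 0.329) and -0.13 for Rplp2 (SE 0.042, adjusted p = 0.162), none past the threshold. Rplp0 had 178, 173, 181, 185 and 171 CPM in PS19/C3aR KO, against 197, 188, 206, 202 and 169 CPM in PS19. PS19 replicate 5 lay below every PS19/C3aR KO library, and the other 4 PS19 libraries lay above them all. Rpl10, which joins the large subunit late in its assembly, averaged 209.9 ± 6.18 CPM in PS19/C3aR KO and 229 ± 11.9 CPM in PS19 (SD, n = 5 each; log2 fold change -0.13, SE 0.038, edgeR adjusted p = 0.119, DESeq2 adjusted p = 0.0264). Without PS19 replicate 5, edgeR called Rpl10 (-0.16, SE 0.035, adjusted p = 0.0209) and Rplp0 (-0.16, SE 0.039, adjusted p = 0.0316), beside 2.86% of all genes. With a score of choroid plexus genes as a covariate, it called Rpl10 alone of the 76 (-0.15, SE 0.030, adjusted p = 0.0357), beside 0.288% of all genes.

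**Figure D2:**
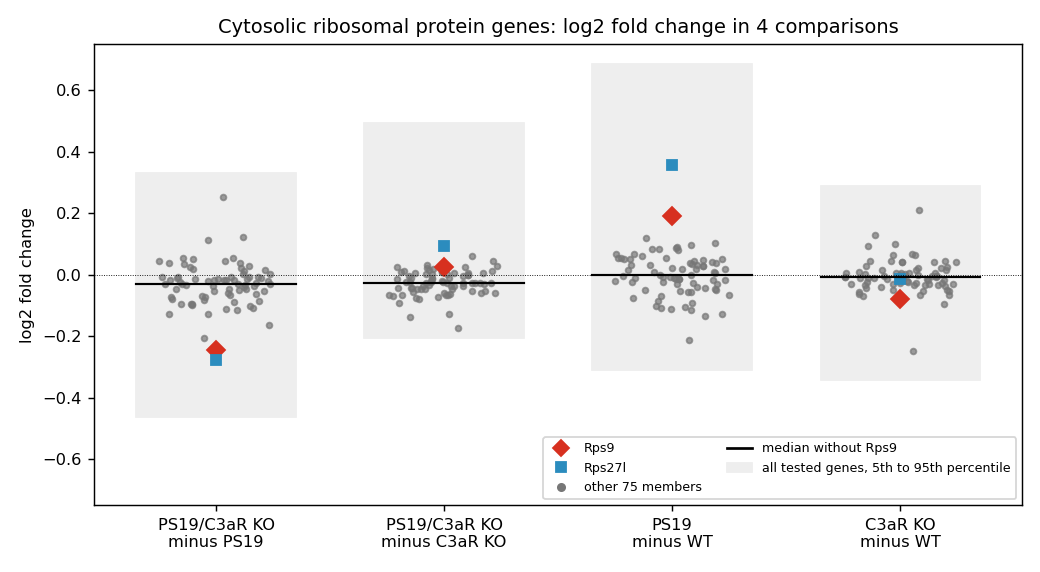
Log2 fold change of each ribosomal protein gene in 4 comparisons, with Rps9 as a red diamond, Rps27l as a blue square, the other 75 members as grey points, their median without Rps9 as a line, and the 5th to 95th percentile of all tested genes as a grey band. Most members lie near 0 in every comparison, while Rps9 is at -0.25 and 0.19 in the first and the third, and Rps27l at -0.28 and 0.36.

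In PS19 against WT, 1 of the 76 members rose, Rps27l, and none fell, whereas 10.8% of all tested genes passed, 7.5% higher and 3.32% lower. At an unadjusted p below 0.05, 8 members differed, beside 24.8% of all genes. The median log2 fold change of the 76 was -0.0020, with 39 below 0, beside 8610 of 16657 genes. For 72 of the 76 the 95% interval lay inside 1.2-fold, against 37.6% of all genes. DESeq2 called 2 of the 76, Rps27l higher and Rpl3 lower, beside 13.7% of all genes. Rpl3, a large subunit protein near the peptidyl transferase centre, averaged 444 ± 22.4 CPM in PS19 and 479 ± 13.3 CPM in WT (SD, n = 5 each; log2 fold change -0.11, SE 0.040, edgeR adjusted p = 0.0912, DESeq2 adjusted p = 0.0379). Without PS19 replicate 5, edgeR called 5 of the 76 in PS19 against WT, beside 13.4% of all genes. All 5 were higher, among them Rps27l (0.39), Rplp0 (0.15), Rps12 (0.13) and Rpl10 (0.11, log2 fold changes). The lowest log2 fold changes were those of Rps2 (-0.21, SE 0.17, adjusted p = 0.477) and Rpl37 (-0.14, SE 0.057, adjusted p = 0.147), neither past the threshold.

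Rps27l was the lowest member by level and the one that passed the test. Its CPM values were 8.56, 6.84, 7.25, 7.60 and 7.28 in PS19/C3aR KO, and 9.34, 8.97, 10.1, 8.73 and 8.37 in PS19. They were 7.42, 6.40, 7.10, 7.49 and 6.74 in C3aR KO, and 7.64, 6.19, 6.76, 6.93 and 7.98 in WT. The PS19 libraries lay above all 5 WT libraries, the only member other than Rps9 for which these 2 groups did not overlap, where 5.93% of all genes were wholly higher and 3.11% wholly lower. PS19 replicate 5 lay below PS19/C3aR KO replicate 1. Against WT, Rps27l rose in PS19 by 0.36 on the log2 scale (SE 0.081, edgeR adjusted p = 0.00734), higher in 5 of 5 PS19 libraries than in any WT library. Between PS19/C3aR KO and PS19 the value was -0.28 (SE 0.081, edgeR adjusted p = 0.119, DESeq2 adjusted p = 0.0395). Of the 76-base windows of Rps27l transcripts, 7.75% were shared with other genes.

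The rise of Rps27l in PS19 went with the microglial, astrocyte and oligodendrocyte sums given above and with a share of Rn45s of 0.873 to 3.65% in PS19 against 2.85 to 4.48% in WT. It was no longer called with the Rn45s share or with the microglial and astrocyte scores as covariates, and the part of oligodendrocytes was not tested. Over all 16657 tested genes, calls in PS19 against WT went from 1803 to 431 with the Rn45s share and to 4 with these scores. The test over 4 genotypes still called Rps27l with the Rn45s share (edgeR adjusted p = 0.0280). Fitted beside the Rn45s share, the difference of Rps27l between PS19 and WT was 0.35 on the log2 scale (SE 0.10, adjusted p = 0.0741). With the microglial and astrocyte scores as covariates, a setting added after the data were seen, it was 0.13 (SE 0.15, adjusted p = 1). In whole tissue, a change in the mix of cells and a change in RNA per cell cannot be told apart.

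Rps9 had 166, 157, 158, 164 and 149 CPM in PS19/C3aR KO, and 186, 178, 205, 201 and 172 CPM in PS19. It had 154, 156, 153, 162 and 155 CPM in C3aR KO, and 167, 159, 167, 162 and 169.7 CPM in WT. All 5 PS19 libraries lay above all 15 others, and the other 3 groups overlapped. Over all tested genes, 96, or 0.576%, had this order, and nothing is read from that share because the gene was chosen for its difference. The mean was 158.9 ± 6.49 CPM in PS19/C3aR KO, 188 ± 14.3 CPM in PS19, 156 ± 3.704 CPM in C3aR KO and 165 ± 4.32 CPM in WT (SD, n = 5 each). As a description, its log2 fold change was -0.25 (SE 0.044) in PS19/C3aR KO against PS19 and 0.19 (SE 0.044) in PS19 against WT. It was 0.025 (SE 0.044) in PS19/C3aR KO against C3aR KO and -0.080 (SE 0.044) in C3aR KO against WT. The comparisons share libraries, so these values are not independent of each other.

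**Figure D3:**
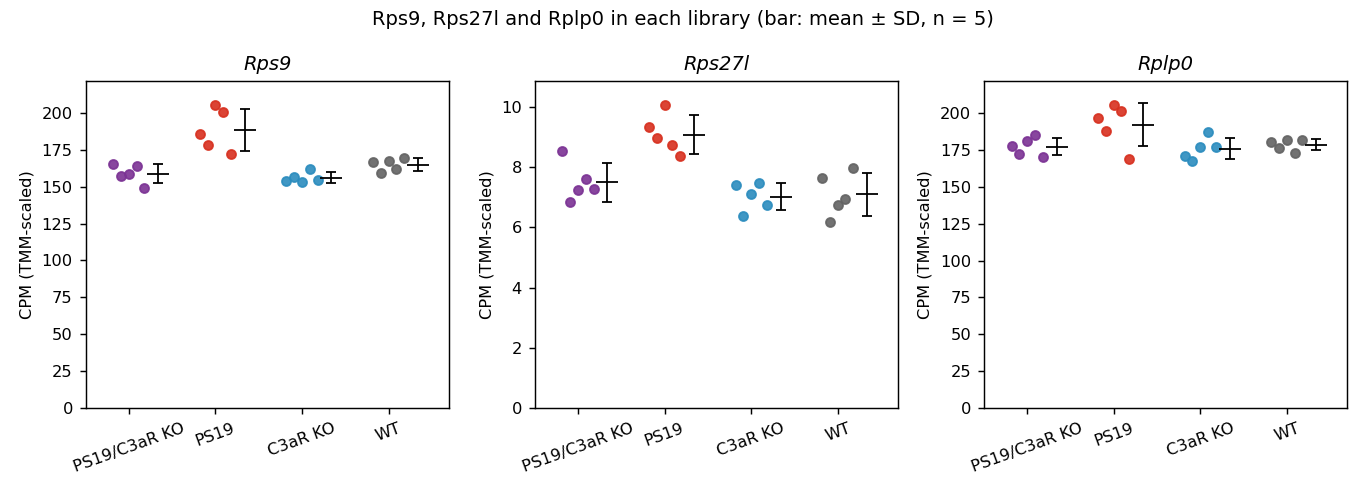
CPM, scaled by TMM, of Rps9, Rps27l and Rplp0 in each of 20 libraries, with the mean and SD of each genotype beside its 5 points. The PS19 points run from 172 to 205 CPM for Rps9, above all 15 other libraries, and from 8.37 to 10.1 CPM for Rps27l, above all WT libraries, while for Rplp0 PS19 replicate 5, at 169 CPM, lies below every PS19/C3aR KO and WT library.

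The oligodendrocyte sum had the same order as Rps9, with the PS19 libraries above the other 15, and its part was not tested. With the microglial and astrocyte scores as covariates, the log2 fold change of Rps9 was -0.14 (SE 0.039) in PS19/C3aR KO against PS19 and -0.026 (SE 0.058) in PS19 against WT. The 10 genes most like Rps9, by Pearson's r of log2 CPM over the 20 libraries, were Rhoq (0.91), Nfatc3 (0.90), Myo6 (0.90), S100b (0.89), Selplg (0.88), Ugp2 (0.88), Kcnj10 (0.88), Cmklr1 (0.88), Nacc2 (0.88) and Il33 (0.87). These values include the genotype difference for which Rps9 was chosen, and the libraries share genotypes and scaling. On deviations from the genotype means, r for the same 10 genes ran from 0.51 for Il33 to 0.88 for S100b. Among the members, Rplp0 was most like Rps9 (r = 0.85), then Rps27l (r = 0.82), while the median member had r = 0.27 and Rpl22l1 the lowest at -0.50.

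In libraries labelled PS19/C3aR KO against those labelled C3aR KO, none of the 76 members passed the edgeR or the DESeq2 test, where edgeR called 0.006% of all genes and DESeq2 0.949%. At an unadjusted p below 0.05, 1 member differed, Rpl9 (log2 fold change -0.13, SE 0.049), beside 9.71% of all genes. The median log2 fold change was -0.026, with 54 of 76 below 0, against -0.0015 over all genes, with 8433 of 16657 below 0. The 95% interval lay inside 1.2-fold for 72 of the 76, against 45.3% of all genes. None of the 76 had its 2 groups wholly apart, where 1.3% of all genes were wholly higher and 0.552% wholly lower. Rps27l had the highest log2 fold change at 0.095 (SE 0.081, adjusted p = 0.806), then Rps12 of the small subunit at 0.061 (SE 0.048, adjusted p = 0.784), and Rps2 the lowest at -0.17 (SE 0.17, adjusted p = 0.836).

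In libraries labelled C3aR KO against WT, none of the 76 passed the edgeR or the DESeq2 test, where edgeR called 0.06% of all genes, 0.042% higher and 0.018% lower, and DESeq2 0.348%. The median log2 fold change was -0.0087, with 46 of 76 below 0, against -0.0022 over all genes, with 8473 of 16657 below 0. None of the 76 had its 2 groups wholly apart, where 0.702% of all genes were wholly higher and 0.54% wholly lower. The 95% interval lay inside 1.2-fold for 73 of the 76, against 46.1% of all genes. Rps14, a small subunit protein, was the 1 member with an unadjusted p below 0.05, beside 6% of all genes. It averaged 132 ± 16.1 CPM in C3aR KO and 157 ± 16.7 CPM in WT (SD, n = 5 each; log2 fold change -0.25, SE 0.098, adjusted p = 0.755). Rps2 had the highest log2 fold change at 0.21 (SE 0.17, adjusted p = 0.900), then Rpl13a, a large subunit protein, at 0.13 (SE 0.062, adjusted p = 0.835), and Rplp1 was the lowest after Rps14 at -0.097 (SE 0.050, adjusted p = 0.851).

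The interaction, the difference between PS19/C3aR KO and C3aR KO less the difference between PS19 and WT, gave no called member by edgeR or DESeq2, where edgeR called 0.012% of all genes and DESeq2 0.018%. Rps27l (-0.26, SE 0.12), Rplp2 (-0.13, SE 0.060) and Rpl10 (-0.12, SE 0.053) had an unadjusted p below 0.05, beside 4.15% of all genes, and each had an adjusted p of 0.9995. Rps4l (-0.26, SE 0.17), Rpl3 (0.084, SE 0.057) and Rpl37 (0.068, SE 0.081) were the other members at the ends of the range. For Rps9 the same contrast was -0.17 (SE 0.063), given as a description. A single test for any difference among the 4 genotypes called 1 of the 76 members, Rps27l (edgeR adjusted p = 0.0101), beside 11% of all genes.

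In several libraries, most members stood high or low together, measured against each gene's mean over all 20 libraries. In C3aR KO replicate 1, 2 of the 76 members were above their own mean over all libraries, in PS19/C3aR KO replicate 5 there were 3, in PS19 replicate 5 there were 5 and in PS19/C3aR KO replicate 1 there were 9. In PS19 replicate 4, 71 of the 76 were above it. Other libraries were nearer an even split, with 35 and 38 in C3aR KO replicates 4 and 5. PS19/C3aR KO replicates 2 and 3 had 44 and 45. Between 47.9 and 52.7% of all tested genes were above their own mean in each library. These levels were scaled by TMM, so the members' shift is relative to the other genes. The 4 libraries with the fewest members above the mean had 2686 to 3929 CPM of Ttr, but PS19 replicate 1, with the highest Ttr at 4060 CPM, had 58 members above it. Rn45s held 4.34% of counts in C3aR KO replicate 1 and 4.48% in WT replicate 1, where 49 members were above the mean. The part of choroid plexus tissue and of Rn45s in this shift was not tested. The median deviation of the 76 members ranged from -0.097 to 0.077 on the log2 scale over the libraries, and the genotypes overlapped.

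**Figure D4:**
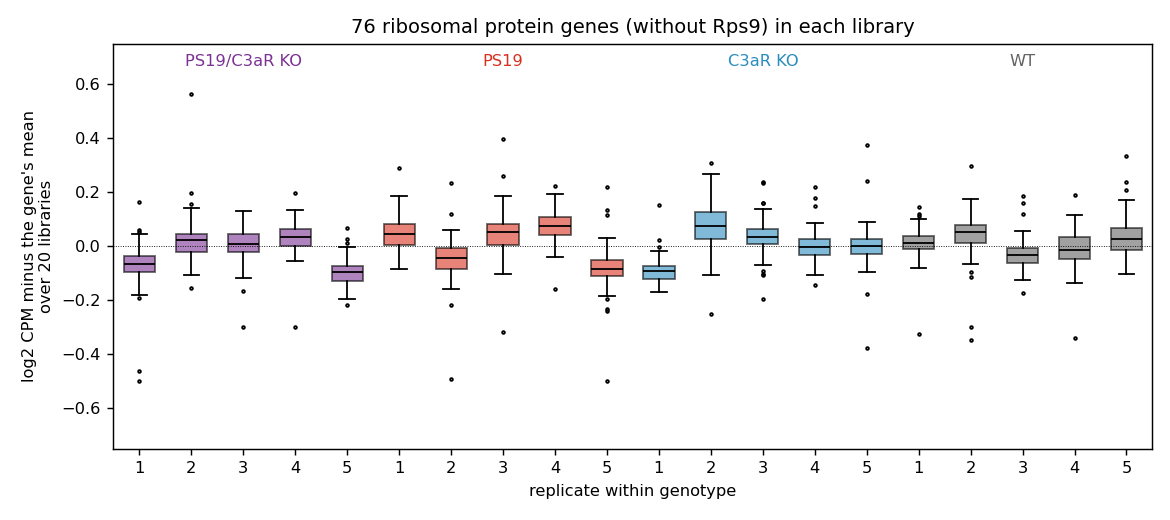
Log2 CPM of each of 76 ribosomal protein genes minus its mean over 20 libraries, as 1 box per library (median, quartiles, whiskers to 1.5 times the interquartile range, points beyond), by genotype and replicate. The lowest medians, near -0.097 and -0.091, are those of PS19/C3aR KO replicate 5 and C3aR KO replicate 1, the highest, near 0.076 and 0.077, those of PS19 replicate 4 and C3aR KO replicate 2, and the genotypes overlap.

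Spread within groups was low for most members and wide for a few. The SD of log2 CPM within groups had a median of 0.072 over the members, against 0.156 over all tested genes and 0.094 over the 4138 other genes in the same range of levels. The widest were Rps2 at 0.28, Rps4l at 0.20 and Rps14 at 0.17. Rps2, a small subunit protein close to the mRNA entry, had 282, 590.2, 411, 392 and 392 CPM in PS19/C3aR KO, and 431, 284, 320.1, 419 and 282 CPM in PS19. It had 444, 480.1, 469, 464 and 472 CPM in C3aR KO, and 319, 313, 454, 455 and 469.96 CPM in WT. In all, 6 libraries from 3 genotypes lay between 282 and 320.1 CPM and the other 14 between 392 and 590.2 CPM, with no library between, a split chosen after the values were seen. Within the upper range, PS19/C3aR KO replicate 2 at 590.2 CPM stood apart from the next library at 480.1 CPM. All 5 libraries labelled C3aR KO were in the upper range. Of the 76-base windows of Rps2 transcripts, 49.2% also occurred in transcripts of 50 other genes, and the part of these copies in the split was not tested. For Rps14 that share was 10.9%.

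**Figure D5:**
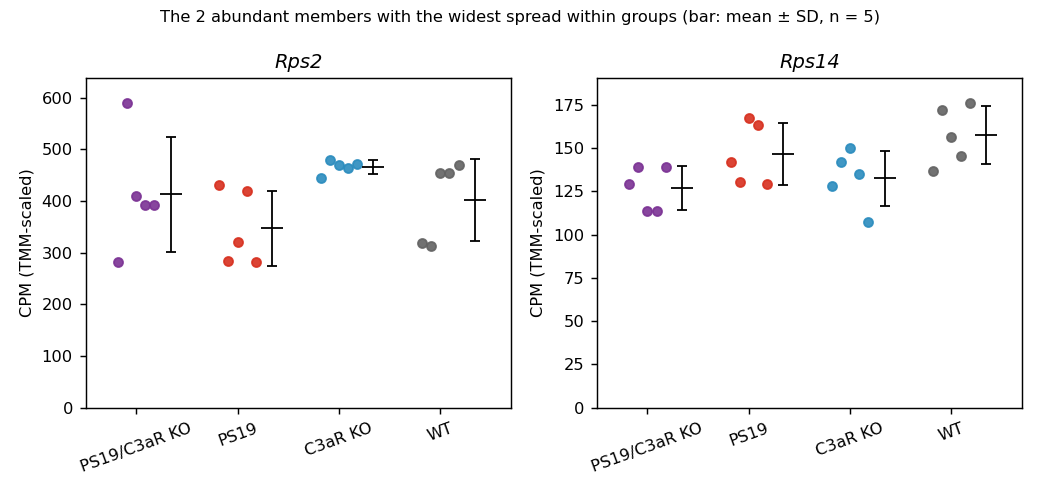
CPM, scaled by TMM, of Rps2 and Rps14 in each of 20 libraries, with the mean and SD of each genotype beside its 5 points. Rps2 has 6 libraries from 282 to 320.1 CPM and 14 from 392 to 590.2 CPM, the highest apart from the rest, and Rps14 spreads from 108 to 176 CPM.

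Among the minor paralogs beside Rps27l, Rpl22l1 had 29.5 ± 2.28 CPM in PS19/C3aR KO, 27.1 ± 1.48 CPM in PS19, 30.9 ± 2.95 CPM in C3aR KO and 29.6 ± 0.655 CPM in WT (SD, n = 5 each), with a log2 fold change of -0.13 (SE 0.062, adjusted p = 0.211) in PS19 against WT. Rpl7l1 had 38.3 ± 0.995 CPM in PS19/C3aR KO, 37.4 ± 2.65 CPM in PS19, 38.0 ± 0.749 CPM in C3aR KO and 36.3 ± 1.46 CPM in WT, and a log2 fold change of 0.043 (SE 0.044, adjusted p = 0.616) in PS19 against WT. Rps4l, a relative of Rps4x, had 11.4 ± 1.93 CPM in PS19/C3aR KO, 12.8 ± 1.19 CPM in PS19, 12.6 ± 2.002 CPM in C3aR KO and 11.8 ± 1.47 CPM in WT, and a log2 fold change of 0.12 (SE 0.12, adjusted p = 0.624) in PS19 against WT. Of 6 minor paralogs tested, Rpl3l and Rpl36al included, 1 was called in PS19 against WT, Rps27l, and 0 in the other comparisons by edgeR.

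Genes that work with the ribosomal proteins were counted from lists. In PS19 against WT, of 19 other mRNAs classed as TOP mRNAs, 2 rose and 1 fell, where 10.8% of all genes passed. Vim, an intermediate filament protein of astrocytes and vessels, rose (log2 fold change 1.73, SE 0.27, adjusted p = 0.000584), as did Tpt1, the translationally controlled tumour protein (0.22, SE 0.064, adjusted p = 0.0364). Eif3e, a subunit of an initiation factor, fell (-0.12, SE 0.037, adjusted p = 0.0448). None of 25 ribosome biogenesis genes, 11 RNA polymerase I genes and 16 genes of mTORC1 and TOP translation control passed the edgeR test in this comparison, where 2, 2 and 3 of them had an unadjusted p below 0.05, beside 24.8% of all genes. Of 77 mitochondrial ribosomal protein genes, 1 rose, Mrps6 (0.54, SE 0.11, adjusted p = 0.00315), and 2 fell, Mrps26 (-0.20, SE 0.042, adjusted p = 0.00451) and Mrpl3 (-0.19, SE 0.045, adjusted p = 0.0109). The median log2 fold change of the mitochondrial set was -0.018. Fau, whose product carries a ribosomal protein behind a ubiquitin-like protein, did not pass (-0.011, SE 0.054, adjusted p = 0.932).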

How the data were processed

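RNA was sequenced as 76-nt read pairs, aligned with TopHat 2.0.9 to mm10 and counted over the union of a gene's exons with htseq-count, per the labels' protocols. The deposited files hold these raw counts for 24513 genes, with no normalization, and 5 summary lines, which entered neither library sizes nor tests (reads in no exon were 17.4 to 25.4%). DESeq2 also stands in the submitters' processing notes, its role unstated. The sources used here give no annotation release and no strand setting.

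Groups and replicate numbers came from the sample titles. One edgeR 4.0.16 quasi-likelihood fit (R 4.3.3, TMM, genotype as the only factor, all 20 libraries) covered the 16657 genes kept by filterByExpr (minimum count 10, minimum total 15), with Benjamini-Hochberg adjustment over all of them and calls at 0.05. The code was tested on simulated counts. DESeq2 1.42.0, limma 3.58.1 (voom), other scalings and filters, covariates, a replicate block and leaving out each library were alternatives. The members and gene lists were chosen with earlier results of these data known. Named members were Rps9, called members, the 2 highest and 2 lowest per comparison, the 3 highest and lowest per length, the 3 widest within groups, those next to the CPM threshold, and minor paralogs with their parents. Other members and neighbours named were chosen after their values were seen.

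Lengths and shared 76-base windows are from GENCODE vM21 (shortest principal transcript; 76 of 77 members), which may differ from the authors' annotation. Positions and promoters are from RefSeq on GRCm38.p6, matched by symbol, with a promoter for 57 members. No 2 libraries of a group were duplicates (chi-square per degree of freedom 8.62 to 104). Same-numbered libraries deviated together with r above 0.1 in 16 of 30 pairs (-0.27 to 0.55). Their mean r was 0.13, against -0.033 for libraries with different numbers. The titles do not say whether the numbers pair libraries, so the main fit left them out and a replicate block was an alternative.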

Additional observations from a re-analysis of the deposited data

Results flagged for a closer look

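Dixon's test was run on 84 groups of 5 libraries, for 20 genes named by rule and the members' share of counts, in each of 4 genotypes. Rpl3l and Rpl36al were among the 20 genes but are not members. In 3 of the 84 groups, 1 library lay far from the other 4, where chance flags about 1 in 20 groups. All 3 were in the libraries labelled C3aR KO. Rpl22l1 had 36.1 CPM in C3aR KO replicate 2, and the next highest library of that group had 30.2 CPM. Rplp1 had 309 CPM in C3aR KO replicate 1, and the next lowest had 328 CPM. Rpl41 had 203 CPM in the same library, C3aR KO replicate 1, and the next lowest had 237 CPM.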

How the results depend on the processing

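Called members among the 76: in PS19/C3aR KO against PS19, 0, with 2 by DESeq2 and 1 with a choroid plexus covariate. In PS19 against WT there was 1, with 2 by DESeq2, 3 with the choroid plexus score (Rpl10 and Rps27l among them), 0 with the Rn45s share and 0 with the microglial and astrocyte scores, added after seeing the data. Over all genes, these same fits called 1803, 2275, 2292, 431 and 4 in PS19 against WT. The test over 4 genotypes called 1, beside 11% of all genes, with 3 by DESeq2, 3 with the choroid plexus score and 0 with the glial scores. Calls over all genes in the other fits of this test were not counted, so nothing is read from these member counts. Leaving out 1 library gave 0 to 2, 1 to 5 and 1 to 4 calls in these 3 comparisons. The highest values were without PS19 replicate 5, where 2.86% and 13.4% of all genes were called in the first 2 comparisons. With the glial scores, the median log2 fold change of the 76 was 0.033 in PS19/C3aR KO against PS19, -0.084 in PS19/C3aR KO against C3aR KO and -0.11 in PS19 against WT. Rps9 was then at -0.14, -0.095 and -0.026, and at -0.069 in the interaction. The median of the interaction was 0.051 with the Rn45s share. The medians of PS19/C3aR KO against PS19 and of the interaction, and Rps9 in PS19/C3aR KO against C3aR KO and in PS19 against WT, thereby changed sign. So did Rps27l (-0.020) and Rps12 (-0.058) in PS19/C3aR KO against C3aR KO with the glial scores. Over single libraries left out, the median also crossed 0 in PS19 against WT (-0.017 to 0.024) and in C3aR KO against WT (-0.026 to 0.020). Rps27l in C3aR KO against WT ranged from -0.055 to 0.034 over single libraries left out, with 0.018, 0.0004, 0.019 and 0.034 without C3aR KO replicates 2 and 5 and WT replicates 1 and 5. Why these values moved was not tested. With the replicate number as a block, 0, 0, 1, 0 and 0 members were called in the 5 comparisons, as without it. Over all genes, 212, 22, 2105, 14 and 2 were called with the block, against 42, 1, 1803, 10 and 2 without it. Rps27l had 0.36 in PS19 against WT with the block (edgeR adjusted p = 0.00542). Whether the numbers pair the libraries is not in the titles. Over all genes in PS19/C3aR KO against PS19, DESeq2 called 443, edgeR 42, and edgeR with the choroid plexus score 48.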
